A study of Mus musculus with 18 samples.

Results

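H3K27ac, the acetylation of histone H3 at lysine 27, was compared between bone marrow-derived macrophages (BMDM) of mdx and wild-type (WT) mice through the list of peaks deposited for each genotype. The members described are the 20807 protein-coding genes of GENCODE release vM21 on chromosomes 1 to 19, of which 7609 had a peak within 5 kb of the transcription start in at least 1 list. The lists came from 4 of the 18 samples of the series, 2 WT and 2 mdx libraries. The WT mice had the strain label C57BL6 and labelled ages of 19 and 20 weeks, and the mdx mice had the strain label Dmdmdx-4Cv and labelled ages of 21 and 22 weeks. The labels count up by 1 week from sample to sample over the whole series, from 6 to 23 weeks, so age as labelled and genotype cannot be told apart. All cells were untreated, had been grown from bone marrow with M-CSF from L929 cell supernatant, and were precipitated with the same H3K27Ac antibody after digestion of the chromatin with micrococcal nuclease. The 1 H3K27ac input library carries no genotype in its label.

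Acetyl groups are placed on H3K27 mainly by the related acetyltransferases p300 and CBP and are removed by histone deacetylases. The mark lies on the nucleosomes that flank active promoters and enhancers, and Polycomb methylation occupies the same lysine at silent genes. In macrophages, enhancers selected by the lineage factor PU.1 (Spi1) carry it, and inflammatory stimuli through receptors such as TLR4 add it at cytokine genes. The mdx mouse carries a mutation of the X-linked dystrophin gene and is a model of Duchenne muscular dystrophy. Dystrophin itself lies outside the chromosomes compared.

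The sequences of 4 starts are shown because the comparison turns on them. Jak2 had a peak over the start in WT BMDM only, and Sdc3 had peaks near the start in mdx BMDM only. Sh2b3 had the lowest ratio of mdx to WT reads among genes with peaks in both lists and at least 50 reads summed. That rank holds with overlapping WT and mdx peaks merged and judged whole, as described below. In the 5 kb window Glipr1 and Prdx2 had lower ratios. Spi1 was covered in both lists. Each is the 200 bases before the GENCODE start, read from the GRCm38 assembly of RefSeq (mm10 is the same build), 5′ to 3′ on the strand of the gene. Capitals mark the GC box GGGCGG or its complement, the only motif found here among the 10 that were searched.
Jak2, chr19:29251628-29251827, plus strand: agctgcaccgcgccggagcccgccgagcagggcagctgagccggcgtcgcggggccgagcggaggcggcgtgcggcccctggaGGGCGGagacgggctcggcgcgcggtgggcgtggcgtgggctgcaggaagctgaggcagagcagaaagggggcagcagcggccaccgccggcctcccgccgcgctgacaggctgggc
Sdc3, chr4:130792337-130792536, plus strand: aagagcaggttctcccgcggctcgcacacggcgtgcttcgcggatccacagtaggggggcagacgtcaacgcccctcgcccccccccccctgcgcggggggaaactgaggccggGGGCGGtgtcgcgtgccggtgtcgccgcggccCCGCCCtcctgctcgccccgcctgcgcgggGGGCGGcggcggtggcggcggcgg
Sh2b3, chr5:121837647-121837846, minus strand: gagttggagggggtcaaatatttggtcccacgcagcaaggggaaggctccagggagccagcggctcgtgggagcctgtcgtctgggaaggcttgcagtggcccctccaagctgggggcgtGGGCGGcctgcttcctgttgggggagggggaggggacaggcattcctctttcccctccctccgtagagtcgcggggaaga
Spi1, chr2:91082190-91082389, plus strand: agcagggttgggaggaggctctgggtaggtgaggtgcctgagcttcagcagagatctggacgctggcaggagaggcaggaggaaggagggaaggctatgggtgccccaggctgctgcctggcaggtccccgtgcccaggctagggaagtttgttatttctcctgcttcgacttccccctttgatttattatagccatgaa
The GC content of these stretches was 79.5% at Jak2 and at Sdc3, 66% at Sh2b3 and 58% at Spi1.

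The mdx list was the smaller. On chromosomes 1 to 19 the WT list held 14962 peaks with 266063 reads over 31.7 Mb, and the mdx list held 11581 peaks with 186508 reads over 24.1 Mb. The peaks themselves were alike in size, with a median length of 1800 bp in both lists, a median of 11 reads in WT and 10 in mdx, and a median density of 7.14 reads per kb in WT and 6.67 in mdx. The smallest peak held 5 reads in either list, and 42.9% of the WT peaks and 45.2% of the mdx peaks held 5 to 9 reads. The number of mapped reads of each library is not given in the sources used here, so a smaller list and a shallower library cannot be told apart. Read counts are therefore given as they stand and also scaled, by multiplying mdx reads by 1.43, the ratio of the reads in peaks of WT to mdx. Because the authors combined the replicates of each genotype, there is no spread between mice to set a difference against, and no test was run. Intervals are at the 95% level and cover counting error only.

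Peaks gathered at transcription starts in both genotypes. Of the WT peaks, 41.5% lay within 5 kb of a start and held 54.1% of the reads, against 44.5% of the mdx peaks with 56.7% of the reads. Coverage was highest 100 to 200 bp downstream of the start, where 24.8% of all genes lay under a WT peak and 21.5% under an mdx peak, and it had fallen to 2.53% and 1.78% at 5 kb upstream. The start itself was covered in both lists at 3647 genes, in WT only at 1488 and in mdx only at 768. The mdx curve lay below the WT curve in every bin.

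**Figure D1:**
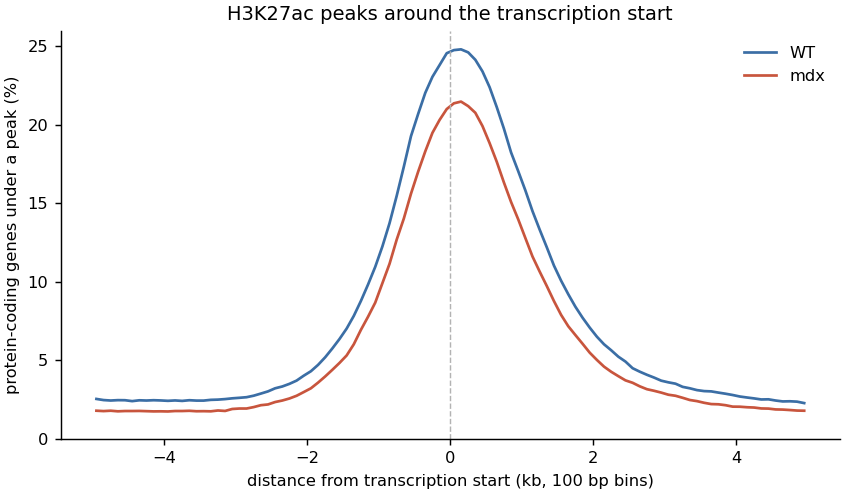
Share of the 20807 protein-coding genes (%, y axis) that lay under an H3K27ac peak in each 100 bp bin from 5 kb upstream to 5 kb downstream of the start (x axis, kb), for the WT (blue) and mdx (red) lists. Both curves are highest between 100 and 200 bp downstream, at 24.8% in WT and 21.5% in mdx.

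Most genes with a peak in WT BMDM also had one in mdx BMDM. Within 5 kb of the start, 5133 genes had a peak in both lists (kept), which is 24.7% of all genes. A further 1722 genes, 8.28% of all, had a peak in WT only (lost), and 754 genes, 3.62% of all, had a peak in mdx only (gained). No peak was listed at 13198 genes. Lost genes were 25.1% of the 6855 genes with a WT peak (Wilson interval 24.1 to 26.2%), and gained genes were 12.8% of the 5887 genes with an mdx peak (12.0 to 13.7%). Of the 2476 genes that differed, 69.5% were lost. When the same number of peaks was taken from each list by reads per kb, 1358 genes were lost and 1028 gained, so 56.9% of the differing genes were lost. Lost and gained say only that a gene's peak is in a list or not. A gene without a listed peak may still have reads, and no fold change is given for it.

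The genes with a peak in 1 list only were the weakly covered ones. Among genes with 5 to 9 WT reads 58.2% were lost, among those with 10 to 19 reads 28.7%, and among those with 20 to 49 reads 5.26%. Among genes with 50 to 99 WT reads 0.592% were lost (Rhof, Polr1e and Elovl5), and among those with 100 or more 2.38% (Gdf3, Csf1r and Bax). Gained genes were also most frequent at low counts, with 31.7% of the genes of 5 to 9 mdx reads, 9.74% of those of 10 to 19 reads 0.999% of those of 20 to 49 reads and 1.97% (5 of 254) of those of 50 to 99 reads. With whole regions the shares at 20 to 49 and 50 to 99 reads were 0.307% and 0.380%. The median was 9 WT reads in lost genes and 8 mdx reads in gained genes, against 21 WT and 15 mdx reads in kept genes.

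**Figure D2:**
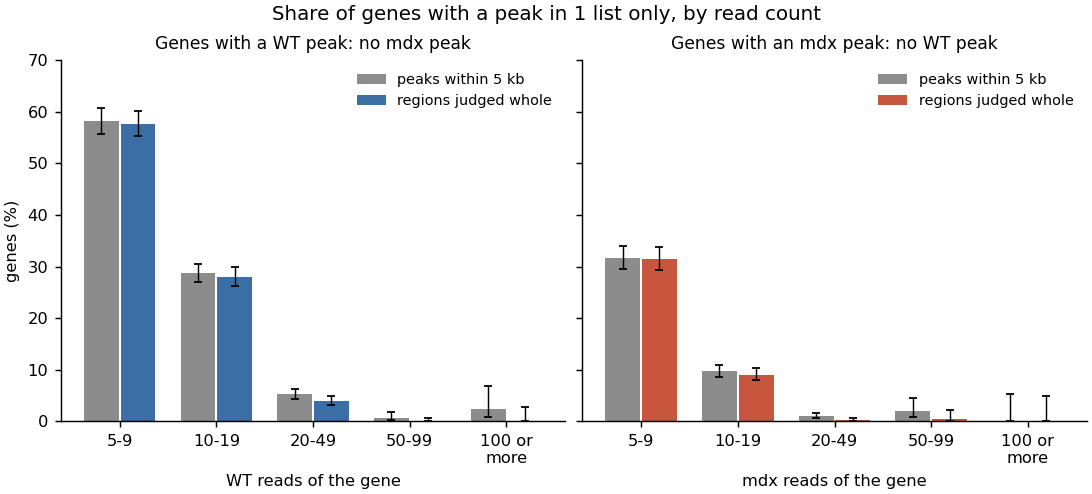
Share of genes (%, y axis) with a peak in 1 list only, by the reads of the gene in the list that had the peak (x axis), for WT (left) and mdx (right). Grey bars count peaks within 5 kb, coloured bars judge merged WT and mdx regions whole, and error bars are Wilson 95% intervals. From 58.2% at 5 to 9 WT reads the grey bars fall to 5.26% at 20 to 49 reads, and with whole regions no gene of 50 or more WT reads was lost.

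Many of the lost and gained genes with the most reads were set by the edge of the 5 kb window. Gdf3, a growth factor of the TGF-beta family, had 222 WT reads and no mdx peak inside the window, yet its WT peak began 4287 bp downstream of the start and an overlapping mdx peak of 189 reads began 5087 bp downstream. Csf1r, the M-CSF receptor on which macrophages depend, had 162 WT reads in the window and none in mdx. Its WT peak of 154 reads began 2603 bp downstream and its mdx peak of 165 reads began 5003 bp downstream, just outside. Bax, Rhof, Polr1e and Elovl5 were of the same kind, as was Gsta4 among the gained genes, where the mdx peak of 84 reads ended 3374 bp upstream of the start and the WT peak of 70 reads ended 5574 bp upstream. These cases made up 57 of the 1722 lost genes and 33 of the 754 gained genes, but 35 of the 123 lost genes with 20 or more WT reads (28.5%) and 15 of the 21 gained genes with 20 or more mdx reads (71.4%). With unnamed gene models passed over, the 10 lost and the 10 gained genes with the most reads were all such cases.

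The calls were therefore also made after merging overlapping WT and mdx peaks and judging each merged region whole, a choice made after these values were seen. It left 5223 genes kept (25.1%), 1665 lost (8%) and 721 gained (3.47%). A gene was kept when its regions together held reads of both lists. All 5133 genes kept in the window therefore stayed kept, and the WT and mdx peaks of a kept gene need not overlap, as at Ctss and Pfkfb4. No gene of 50 or more WT reads was then lost, and the Wilson interval for 50 to 99 reads allows up to 0.739%. The values for named genes and gene lists below use these whole regions unless the window is named. A gene's reads are summed over all its regions, so a ratio can include peaks that lie in 1 list only. Ratios are of reads per gene, not per kb, so they also change with the length of the listed peaks.

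**Figure D3:**
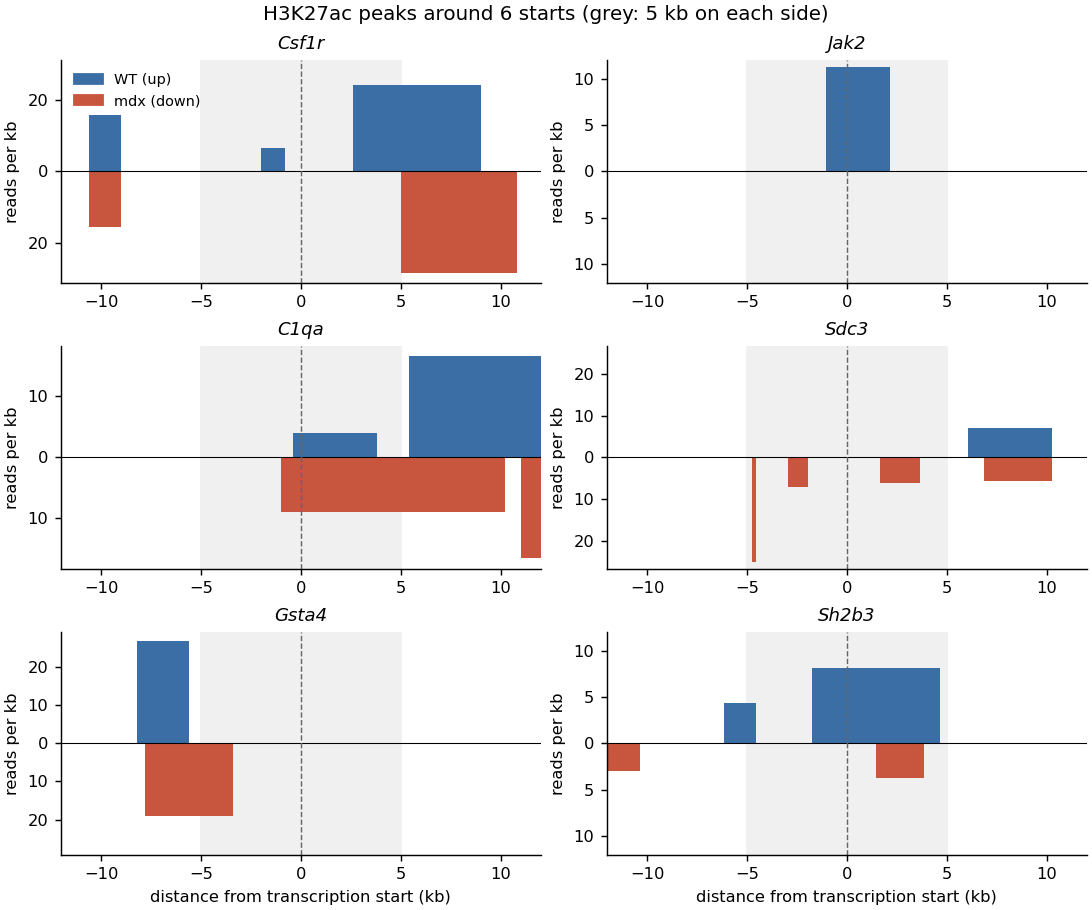
H3K27ac peaks around 6 transcription starts, as distance from the start in kb (x axis) and reads per kb of the peak (y axis), with WT upwards in blue, mdx downwards in red and the 5 kb window in grey. At Csf1r, C1qa and Gsta4 both lists have a large peak that crosses the window edge in only 1 of them, whereas Jak2 has a WT peak alone, Sdc3 has 3 small mdx peaks alone inside the window, and at Sh2b3 the mdx peak is shorter and lower than the WT peak.

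The largest losses that did not come from an edge were of 30 to 40 WT reads, summed over the peaks of each gene. Ankrd40 and Luc7l3, a splicing-related gene, share 40 WT reads in 2 separate peaks. The peak of 31 reads lay 10600 to 4201 bp upstream of the Ankrd40 start, and the peak of 9 reads lay over that start. Stap1, a signalling adaptor, and Trim41, a ubiquitin ligase, also had 40 each. Cisd2, which encodes an iron-sulfur protein of the endoplasmic reticulum and mitochondrial membrane, had 38. Jak2, the kinase that passes on signals of interferon-gamma and several cytokine receptors, had 36 WT reads in a peak at chr19:29250801-29254000, from 1027 bp upstream to 2172 bp downstream of its start, and no mdx peak. Crlf3 had 33, the small GTPase Arl4c 32, the mitochondrial DNA polymerase subunit Polg2 31, the cyclophilin Ppig 31 and Lmna, the gene for lamins A and C, 30. In all, 88 lost genes had 20 or more WT reads, and 884 of the 1665 had 5 to 9.

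Gained genes were fewer than lost genes. Sdc3, which encodes the cell surface proteoglycan syndecan-3, had 24 mdx reads, in 3 peaks of 5, 7 and 12 reads. A further region, more than 6 kb downstream of its start, was in both lists with 30 WT and 19 mdx reads. Ercc4, a subunit of a DNA repair nuclease, had 22 mdx reads. The chromatin remodelling factor gene Bptf, the endosomal GTPase gene Rab11a, the corepressor gene Rcor3, the ribosomal protein gene Rpl22 and Speer4c had 19 each. Alg9 and the clathrin adaptor subunit gene Ap2m1 had 18, and Adprh and Cd80, which share their peaks, had 17. CD80 is a costimulatory ligand for T cells. Only 6 gained genes had 20 or more mdx reads, and the other four besides Sdc3 and Ercc4 were unnamed gene models, Gm17019 (56 reads), Gm21149 (36) and Gm10354 (31) on chromosome 5 and AW822073 (28) on chromosome 10. Speer4c belongs to a multigene family on chromosome 5 whose reads may be split among near-identical copies, so its count is uncertain.

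Genes kept in both lists lay close to the line of equal scaled reads. Counted in the window and unscaled, the median of mdx over WT reads was 0.783 over the 5133 kept genes (quartiles 0.591 and 1), and 1261 genes had more reads in mdx. Scaled, the median was 1.12 (quartiles 0.843 and 1.43), and 3103 genes were higher in mdx. Over the 5223 genes kept with whole regions the medians were 0.785 unscaled and 1.12 scaled. The direction of the median thus depended on the scaling. Peaks at kept genes covered a median of 2200 bp of the window in WT and 2000 bp in mdx, and the covered length was shorter in mdx at 2866 genes, longer at 1869 and the same at 398. Among the 4560 kept genes with at least 20 reads summed over whole regions, 388 (8.51%) were at least 2-fold higher in mdx after scaling and 170 (3.73%) at least 2-fold lower. Without scaling these counts were 106 and 716. Over the window the shares were 8.85% higher and 4.18% lower. The interval of the scaled ratio lay above 1 in 396 genes (8.68%) and below 1 in 153 (3.36%), and that of the unscaled ratio above 1 in 43 and below 1 in 888, so intervals quoted for single genes hold for the scaling they are given with.

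**Figure D4:**
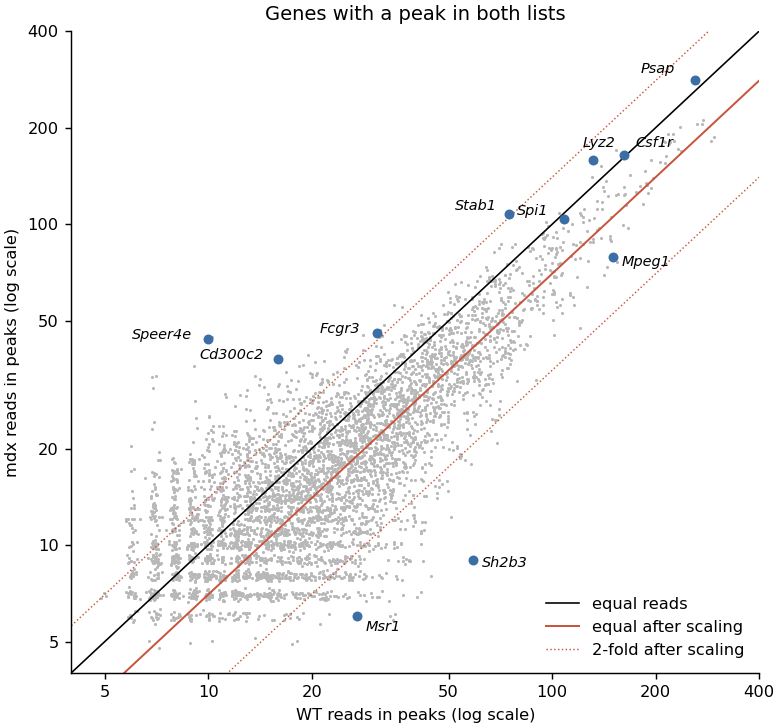
Reads in peaks of each kept gene in WT (x axis) and mdx (y axis), both on log scales, over whole merged regions, with a small random offset to separate points. The black line marks equal reads, the red line equal reads after scaling and the dotted lines a 2-fold difference after scaling. Named genes are blue, with Psap highest at 260 WT and 281 mdx reads and Sh2b3 far below the lines at 59 and 9.

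Among the genes with the most reads, Zeb2, Ctsb and Mcl1 had scaled ratios near 1 and Psap was higher. Psap, which encodes the precursor of the lysosomal saposins, had 260 WT and 281 mdx reads (18.3 and 19.0 reads per kb of peak) and a scaled ratio of 1.54 (1.30 to 1.83). Zeb2, a transcription factor of the myeloid lineage, had 272 and 216 reads with a scaled ratio of 1.13 (0.943 to 1.36). The lysosomal protease gene Ctsb had 268 and 215 reads with a ratio of 1.14 (0.952 to 1.37). The survival gene Mcl1 had 269 and 202 reads with a ratio of 1.07 (0.888 to 1.29). With reads cut in proportion to the window, the scaled log2 ratio of Mcl1 was 0.95. It was -0.17 over the uncut window and 0.099 over whole regions. Of these 4, Psap alone had a scaled interval that did not include 1. Unscaled, the reverse held, with 1.08 (0.910 to 1.28) at Psap, 0.794 (0.661 to 0.953) at Zeb2, 0.802 (0.667 to 0.964) at Ctsb and 0.751 (0.623 to 0.905) at Mcl1.

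At the ends of the range among kept genes with at least 50 reads summed over both lists, Cd300c2, an activating receptor of the CD300 family, had 16 WT and 38 mdx reads, a scaled ratio of 3.39 (1.84 to 6.51). Its mdx peaks were longer but thinner, with 4.22 reads per kb over 9.0 kb against 7.27 over 2.2 kb in WT. The mdx peak that overlaps the WT peak held 30 of the 38 reads. Speer4e, of the same multigene family as Speer4c, had 10 and 44 reads. The mdx peak that overlaps the Speer4e WT peak held 23 of these 44. Fdxacb1 had 17 and 35, but its peak in both lists held 17 reads in each. The other 18 mdx reads lay in a separate mdx peak, the one also called gained at Alg9. Creb3 with its neighbour Tln1 had 18 and 36. The lowest ratio among these genes was that of Sh2b3, which encodes LNK, an adaptor that restrains cytokine receptor and JAK2 signalling. It had 59 WT reads (7.38 per kb) and 9 mdx reads (3.75 per kb), a scaled ratio of 0.218 (0.0949 to 0.442), with the WT peak of 52 reads at chr5:121833001-121839400 and the mdx peak of 9 reads at chr5:121833801-121836200. Cbwd1 (45 and 8 reads), Zfp667 (41 and 9), the repair polymerase gene Polb (43 and 10) and Pik3ca, the catalytic subunit of PI3-kinase alpha (48 and 12), followed. In the window alone, with the same limit of 50 reads, C1qa, a complement component made by macrophages, had the highest ratio, its touching peaks holding 17 and 101 reads, but its whole region held 213 and 180 reads, a scaled ratio of 1.21 (0.983 to 1.48).

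The lists that follow share 13 of their 801 genes, and their counts stand beside those of all genes given above. The study's marker genes for inflammatory and alternatively activated macrophages were mostly bare or alike. Nos2, Il6, Il12a and Chil3 had no peak in either list. Tnf had 12 WT and 9 mdx reads. Tgfb1 had 31 and 37 reads with a scaled ratio of 1.70 (1.03 to 2.84), which unscaled was 1.19 (0.721 to 1.99). The mannose receptor gene Mrc1 had 25 and 16 reads with a scaled ratio of 0.913 (0.455 to 1.78). Among Tnf, Tgfb1 and Mrc1, Tgfb1 was the only one whose scaled interval did not include 1.

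Of 26 genes of TLR4 signalling, from receptor to adaptors and kinases, 14 were kept, 4 lost and 1 gained, and 22.2% of those with a WT peak were lost, against 24.2% over all genes. Tlr4 itself had 44 WT and 29 mdx reads (15.7 and 14.5 per kb), a scaled ratio of 0.940 (0.567 to 1.54). Its co-receptor genes Cd14 (67 and 38 reads) and Ly96 (59 and 51) and the adaptor Myd88 (13 and 17) were kept. Irak3, an inhibitor of the pathway, had 12 and 23 reads with a scaled ratio of 2.73 (1.31 to 6.03). Of these mdx reads, 14 lay in the peak that overlaps the WT peak and 9 in a separate upstream peak. The ratio and interval of Irak3 thus sum different regions. Per kb of peak, Irak3 had 7.5 WT and 3.97 mdx reads. Tab1 had 16 and 24 with a ratio of 2.14 (1.09 to 4.31). Peaks were in WT only at Irf3 (16 reads), Ikbkb (12), Peli1 (9) and Lbp (6), and in mdx only at Traf3 (15). The 16 NF-kappaB subunits and inhibitors all had a peak, with 12 kept, 2 lost and 2 gained. Rel (68 and 46 reads), Rela (33 and 23) and Nfkbia (62 and 37) had scaled intervals that included 1. The negative regulator Tnfaip3 had 10 and 18 reads with a scaled ratio of 2.57 (1.12 to 6.23). Its mdx peak was longer but thinner, with 3.91 reads per kb over 4.6 kb against 10 over 1 kb in WT. The deubiquitinase gene Otulin had 22 and 6 with a ratio of 0.389 (0.129 to 0.989). The Otulin peak that overlaps the mdx peak held 15 of the 22 WT reads.

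Of 37 inflammatory cytokine and chemokine genes 26 had no peak, among them Il1b, Il6, Ccl2, Ccl5 and Cxcl1. The 9 kept genes included Ccl12 (49 WT and 52 mdx reads), Cxcl10 (30 and 29), Il10 (19 and 11) and Ccl3 (13 and 21, scaled ratio 2.3, 1.1 to 5.01). Il18 with 23 WT reads (14.4 per kb) and Ccl6 with 16 had a WT peak only. The interferon-stimulated genes, by contrast, nearly all had a peak. Of 35, 30 were kept, 3 lost and none gained, and the median scaled log2 ratio of the 28 with at least 20 reads was 0.06, against 0.13 over all kept genes with at least 20 reads. Unscaled the medians were -0.45 and -0.39. Parp14 (71 and 53 reads), Irf9 (75 and 43), Ifit3 (67 and 40) and Mx1 (51 and 40) were among the kept. The lost included Rsad2, the antiviral enzyme viperin, with 24 WT reads, and Oas2 with 22. With whole regions, 3.94% of all genes with 20 to 49 WT reads were lost.

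Macrophage identity genes were kept throughout. All 20 markers fixed for macrophages were called kept with whole regions, with a summed 1314 WT and 1045 mdx reads. At Ctss the WT peak of 9 reads and the mdx peak of 13 reads did not overlap. Their median scaled log2 ratio was 0.15 (-0.36 unscaled), 11 of the 20 were above a scaled ratio of 1, and the interval lay above 1 at 5 and below 1 at 1. Csf1r, with 162 and 165 reads, had a scaled ratio of 1.45 (1.16 to 1.82). Lyz2, which encodes lysozyme, had 132 and 159 reads and a ratio of 1.72 (1.36 to 2.18), and the Fc receptor gene Fcgr3 had 31 and 46 and a ratio of 2.12 (1.31 to 3.45). The Fcgr3 peak was longer but thinner in mdx, with 7.42 reads per kb over 6.2 kb against 11.1 over 2.8 kb in WT. Trem2 (49 and 23 reads), Tyrobp (109 and 59) and Clec4n (43 and 17) had scaled ratios below 1 with intervals that included it. Mpeg1, the pore-forming perforin-2, had 150 and 79 reads and a ratio of 0.751 (0.565 to 0.993). Of 24 lineage transcription factors 20 were kept, none lost and 1, Tfeb, the regulator of lysosome genes, gained with 11 mdx reads. Spi1 had 108 and 104 reads with a ratio of 1.37 (1.04 to 1.82), Maf 96 and 76, and Runx1 67 and 37. Those lower in mdx with intervals below 1 included Bhlhe41 (39 and 14, ratio 0.512, 0.257 to 0.964) and Irf8 (24 and 7, 0.416, 0.151 to 0.995). The Irf8 peak was shorter in mdx, with 5.83 reads per kb over 1.2 kb against 4.62 over 5.2 kb in WT.

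Alternative activation and scavenger receptor genes had 12 kept and 2 gained of 24, and none was lost. Stab1, the scavenger receptor stabilin-1, had 75 WT and 108 mdx reads (9.15 and 10.4 per kb), a scaled ratio of 2.05 (1.52 to 2.80) and an unscaled ratio of 1.44. Msr1, scavenger receptor A, went the other way with 27 and 6 reads, a ratio of 0.317 (0.107 to 0.784). The gained were Clec10a with 9 mdx reads and Ppargc1b with 7. Among 30 AP-1 and early response factors, 19 were kept, with Klf6 (187 and 154 reads), Zfp36 (181 and 133) and Jun (112 and 80) the best covered, while Nr4a1 (11 WT reads) was lost and Egr1 (11 mdx reads) gained.

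Gene groups of growth and biosynthesis lay on both sides of the share lost over all genes with a WT peak, 24.2%. Cell cycle (33.3%) and mevalonate genes (45.5%) lay above it, and proteasome (23.5%), citrate cycle (21.1%), glycolysis (18.8%) and ribosomal protein genes (16.7%) below. Of 61 cell cycle and replication genes 26 were kept, 13 lost and 1 gained. The lost had 6 to 21 WT reads and 9 of them had under 10, among them Cdk2 (8 reads), Mcm3 (8) and Ncaph, a condensin subunit (21). Cdk1 was gained with 8 mdx reads. Of 24 mevalonate and cholesterol synthesis genes 6 were kept, 5 lost and 3 gained. Idi1 (18 WT reads) was lost and Mvd (10 mdx reads) gained. Of 75 ribosomal protein genes 55 were kept, 11 lost and 1 gained, and of 39 proteasome subunits 26 were kept, 8 lost and 2 gained. Psmb1 had 32 and 7 reads with a ratio of 0.312 (0.116 to 0.720). Its mdx peak was shorter, with 8.75 reads per kb over 0.8 kb against 6.96 over 4.6 kb in WT. Glycolysis genes were kept in 13 of 22 cases with 3 lost and 1 gained, and citrate cycle genes in 15 of 24 with 4 lost. Pfkfb4 had a WT peak of 25 reads over its start and an mdx peak of 7 reads that began 3023 bp downstream. These peaks do not overlap, so no ratio is given.

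Of the pathway lists, mevalonate genes and antigen presentation genes had the highest share lost of the genes with a WT peak, 45.5% and 42.1%, on 11 and 19 such genes. Of 24 antigen presentation genes 11 were kept, 8 lost and 1 gained. The lost included the costimulatory ligand gene Cd86 (17 WT reads) and the class II regulator Rfxank (18), while the other costimulatory ligand gene, Cd80, was the gained one (17 mdx reads). Of the Cd80 reads, 10 lay in a peak over the start of its neighbour Adprh. The other 7 lay 1240 to 2239 bp downstream of the Cd80 start, so neither peak covered that start. The remaining 6 lost genes had 6 to 8 reads. B2m, the light chain of class I molecules, had 127 and 66 reads with a ratio of 0.741 (0.542 to 1.01).

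Stress and lysosome genes were mostly kept. Of 31 oxidative stress genes 24 were kept, and 6 of these had an interval above 1 and 1 an interval below it. Gclc, which encodes the catalytic subunit of the rate-limiting enzyme of glutathione synthesis, had 7 and 24 reads with a ratio of 4.89 (2.04 to 13.4), and Slc7a11, the cystine transporter, 7 and 17 with a ratio of 3.46 (1.37 to 9.88). Gpx4 had 35 and 44 reads with a ratio of 1.79 (1.12 to 2.88). The subunits of the phagocyte NADPH oxidase did not move together, since Cyba had 59 and 65 reads (ratio 1.57, 1.09 to 2.27), Ncf1 41 and 14 (0.487, 0.245 to 0.912), and Ncf4 (23 WT reads) was lost. Of 38 heat shock and unfolded protein response genes 25 were kept, with Hsp90ab1 at 16 and 31 reads (ratio 2.76, 1.47 to 5.41) and Edem1 at 33 and 8 (0.346, 0.138 to 0.764). The Edem1 peak that overlaps the mdx peak held 20 of the 33 WT reads. Of 49 lysosome and autophagy genes 31 were kept, 4 lost and 4 gained.

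TGF-beta signalling and fibrosis genes were mostly without a peak, 30 of 46, among them the collagen genes Col1a1 and Col3a1. Of the 11 kept, 9 had at least 20 reads and a median log2 ratio of 0.77 scaled and 0.26 unscaled, and 4 had an interval of the scaled ratio above 1, against 8.68% of all such kept genes, namely Tgfbr2 (41 and 49 reads, ratio 1.70, 1.1 to 2.65), Tgfb1, Ski (10 and 17) and Mmp14 (8 and 17). At Mmp14 the peak in both lists held 8 WT and 7 mdx reads. The other 10 mdx reads lay in a separate upstream mdx peak, so the Mmp14 ratio and interval sum different regions. Smad2, Smad4, Smurf2 and Mmp12 were lost with 7 to 10 WT reads, and Smad3 was gained with 9 mdx reads. Of 28 writers, readers and erasers of H3K27 marks 16 were kept and 5 lost. Ep300, the gene for p300, had 30 and 21 reads with a ratio of 0.999 (0.543 to 1.8), and Crebbp, the gene for CBP, lost a peak of 8. The Polycomb methyltransferase genes Ezh1 and Ezh2 each lost a peak of 7 reads, Brd3 lost a peak of 19, and the H3K27 demethylase gene Kdm6b had 84 and 42 with a ratio of 0.713 (0.480 to 1.04).

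Histone genes were nearly all kept. Of 67 replication-dependent histone genes 62 were kept, with a median scaled log2 ratio of 0.37 (-0.14 unscaled), and 22 had an interval above 1. Neighbouring histone genes share peaks, so that the 62 genes rest on 37 distinct WT peaks, and near-identical copies can exchange reads. Hist2h2aa1 had 154 and 166 reads, a ratio of 1.54 (1.23 to 1.93).

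**Figure D5:**
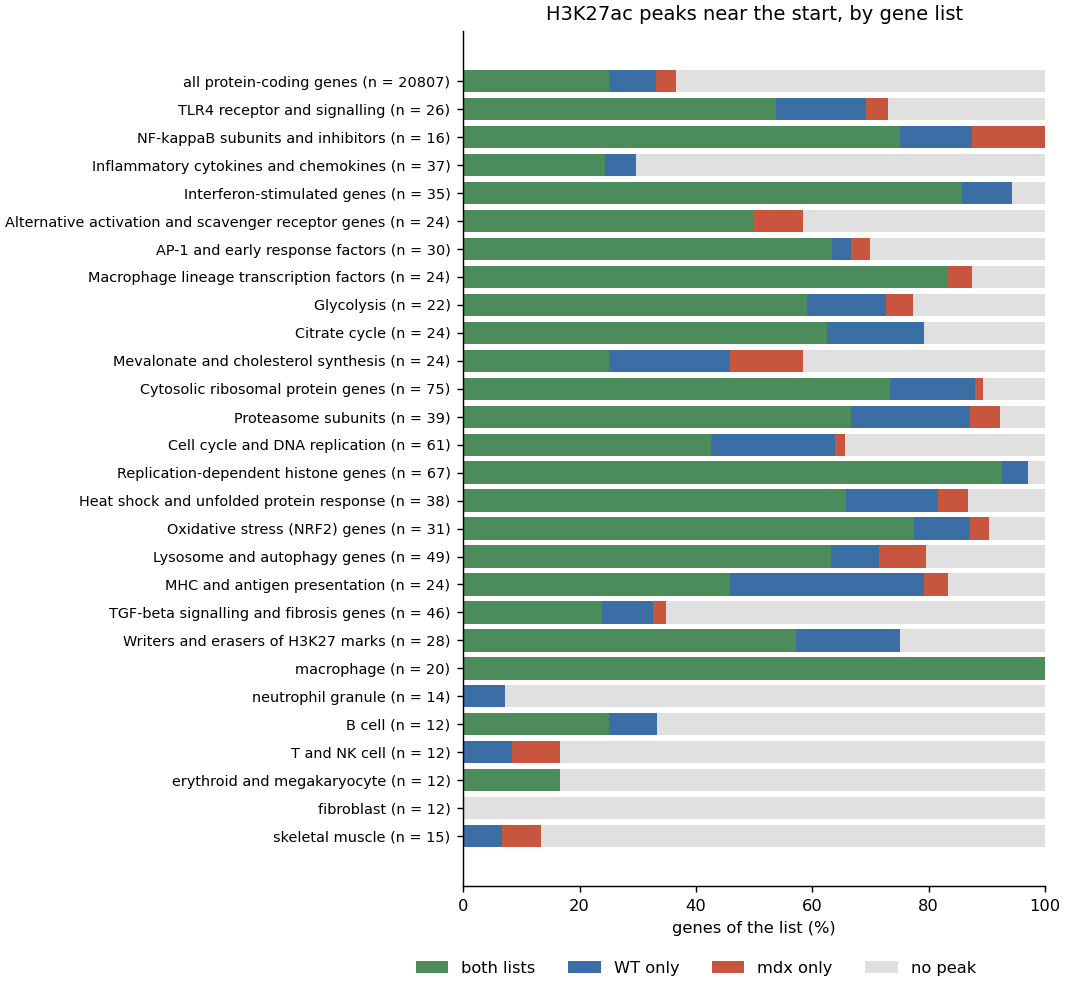
Share of each gene list (%, x axis) with an H3K27ac region near the start in both lists (green), in WT only (blue), in mdx only (red) or in neither (grey), with the number of genes beside each name (y axis). A gene counts as in both lists even where its WT and mdx peaks do not overlap. All macrophage markers are in both lists, at Ctss with peaks that do not overlap, and the fibroblast markers have no peak.

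Markers of other cells that a marrow culture could hold were mostly bare. The 12 fibroblast markers had no peak. Of 14 neutrophil granule markers only Cebpe had one (10 WT reads), with Mpo, Elane and S100a8 bare in both lists. Of 12 T and NK cell markers Cd4 (9 WT reads) and Cd3d (12 mdx reads) had one, and of 15 skeletal muscle markers Acta1 (6 WT reads) and Mymk (8 mdx reads). Of 12 erythroid and megakaryocyte markers Pf4 (45 and 26 reads) and Tal1 (10 and 15) were kept, and the globin genes were bare. Of 12 B cell markers Vpreb1 (28 and 22), Rag2 (7 and 16) and Ms4a1 (7 and 7) were kept and Cd79a (11 WT reads) lost, with Pax5 and Cd79b bare. The summed reads of the B cell list were 53 in WT and 45 in mdx.

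The study drew up gene lists for inflammation and fibrosis, and their differences from all genes were not tested. Of 679 pro-inflammatory genes found here 317 were kept (46.7%), 72 lost and 22 gained. Of 762 anti-inflammatory genes 280 were kept (36.7%), 85 lost and 34 gained. Of 59 pro-fibrotic genes 10 were kept (16.9%), 4 lost and 2 gained, against 25.1% of all genes kept. The lost share of genes with a WT peak was 18.5% in the pro-inflammatory list, 23.3% in the anti-inflammatory list, 28.6% in the pro-fibrotic list and 24.2% over all genes. The median scaled log2 ratio of kept genes with at least 20 reads was 0.13 in the pro-inflammatory list, 0.04 in the anti-inflammatory list and 0.33 in the pro-fibrotic list, where it rests on 8 genes, against 0.13 over all such genes. Unscaled, these medians were -0.39, -0.47, -0.18 and -0.39. Lists chosen by the study are not independent evidence of a direction.

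Genes with a peak had promoters rich in CpG, whichever list held the peak. In the 250 bases before to 50 after each start, read from GRCm38, matches were counted on both strands to 10 motifs, none of which contains another, and 5 are given here: the GC box GGGCGG, the TATA box TATAAA, the E-box CACGTG, the PU.1 motif GAGGAAGT, and the IRF motif, in which GAAA recurs after NN. With genes called in the window, the GC box was in 57.8% of kept, 58.4% of lost and 55.4% of gained promoters, against 35.6% of those without a peak and 43.7% of all. The median ratio of observed to expected CpG was 0.761 in kept, 0.739 in lost and 0.726 in gained genes, and 0.363 without a peak. The TATA box was in 7.48% of kept, 7.96% of lost and 7.43% of gained promoters and in 15.7% of those without a peak. The PU.1 letters were in 3.92% of kept and 3.26% of all promoters. Among kept genes, the IRF letters were in 8.24% of the 170 genes at least 2-fold lower in mdx, 3.35% of the 388 at least 2-fold higher and 4.42% of the 4002 between, called on whole regions. The E-box was in 10.0%, 5.41% and 10.5% of the same groups. These shares are descriptions of the windows, and a match is not a bound site.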

How the data were processed

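The authors deposited 1 SICER island list for each genotype, with the 2 libraries merged, holding the ChIP read count of each peak. The submitters' processing notes name CASAVA 1.8, cutadapt 1.15, Bowtie2 2.3.4, SICER 2.0 and mm10. That replicates were merged is stated for H3K27me3, and the H3K27ac analysis is described as following it. Library depth and the input used for H3K27ac are not given in the sources used here. Peak coordinates were taken as 0-based starts with inclusive ends.

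A gene had a peak when at least 1 bp of it lay within 5 kb of the 5′ end of its GENCODE record, and its reads were those of all such peaks. Genes were kept, lost or gained, and called at 2-fold on scaled reads with at least 20 reads summed. Ratio intervals are exact Clopper-Pearson. Named genes were the study's markers, the 10 lost and 10 gained genes with most reads, the 5 best covered and the 5 highest and lowest ratios of genes with at least 50 reads, and up to 4 per list. Unnamed models were passed over, and genes with identical peaks were named together. Further list members, and every name taken from merged regions, were chosen after their values were seen. The genes, lists and tests were chosen with earlier results of these data known. The calling of windows was tested on simulated lists. Python 3.11.15, numpy 2.4.6, scipy 1.17.1 and pandas 2.3.3 were used. The mdxTLR4-/- list and the H3K27me3 lists were not used. Some genes that the naming rule selects are not reported here.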

Additional observations from a re-analysis of the deposited data

How the results depend on the processing

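No paired analysis was possible because each genotype has 1 merged list, and leaving out a replicate was not possible for the same reason. The numbers of kept, lost and gained genes stayed within 1.5 times of those reported with a window of 1 kb, 5 kb upstream only, any transcript start, at least 200 bp under peaks, peaks of at least 10 reads in both lists, equal numbers of peaks, a density filter, all chromosomes, and merged regions. Requiring a peak of at least 10 reads for a lost or gained call left 802 lost and 246 gained genes. Of the 10 lost and 10 gained named genes with the most reads in the window, 0 and 0 were still called so in merged regions, an alternative added after seeing the data, as was scaling without the peaks of over 100 reads per kb, which kept the direction of the median and the counts of kept genes within 1.5 times.

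The median log2 ratio of kept genes with at least 20 reads was 0.11 after scaling. It turned to -0.40 unscaled, to -0.41 relative to the 1st percentile of reads per kb and to -0.049 when the median ratio of all kept genes was set to 1, and it was 0.082 with at least 50 reads and 0.15 with a 1 kb window. The 396 higher and 187 lower genes became 112 and 741 unscaled, 79 and 741 relative to the 1st percentile, 961 and 562 at 1.5-fold, and 48 and 50 with at least 50 reads. The lower genes became 296 with the median set to 1 and 121 with a 1 kb window. Prdx2 turned from -2.27 to 0.95 when reads were cut in proportion to the window, to 1.25 with 1 kb and to 0.22 in merged regions, Ppp4c from -2.14 to 0.39 with 1 kb, and Tmem50a from -2.05 to 0.10 in merged regions. Of the 18450 merged regions, 7740 kept, 7052 lost and 3658 gained became 5068, 3390 and 1189 with peaks of at least 10 reads. With equal numbers of peaks the lost became 4405 and the gained 4378. Apart from the shift built into each scaling, the cause was not tested. Peaks of 5 to 9 reads made up 42.9% of the WT and 45.2% of the mdx peaks, and how depth bears on the calls was not tested.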

Other observations

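Acetylated regions away from promoters differed between the lists more often than those near them. Merging the peaks of both lists gave 18450 regions, of which 6970 lay within 5 kb of the start of a protein-coding gene. Near starts, 30.3% of the regions with a WT peak had no mdx peak and 16.0% of those with an mdx peak had no WT peak. Away from starts these shares were 60.0% and 45.1%. Coverage differed too, since the 41.5% of WT peaks near starts held 54.1% of the WT reads in peaks. In mdx the 44.5% of peaks near starts held 56.7%. Whether read count accounts for the difference in these shares was not tested. The kept regions were longer, with a median of 2600 bp against 1600 bp for lost and 1800 bp for gained regions, and held 76.2% of the WT and 84.2% of the mdx reads in peaks. Lost regions had a median of 8 WT reads and gained regions a median of 7 mdx reads.

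Within the 5 kb window, the lost share of genes with a WT peak ranged over the chromosomes from 18.5% on chromosome 15 to 32.7% on chromosome 14, and the gained share of genes with an mdx peak from 7.04% on chromosome 18 to 15.8% on chromosome 16. A few very dense peaks were shared by both lists. The region at the start of chromosome 9 (chr9:3000001-3038400 in WT) held 10955 WT and 8710 mdx reads, and chr2:98666201-98667400 held 2417 and 2308. Peaks of more than 100 reads per kb held 6.85% of the WT and 8.30% of the mdx reads in peaks, and leaving them out moved the scaling factor from 1.43 to 1.45.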
